A study of Mus musculus with 6 samples.

Results

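The genes described here fold proteins in the endoplasmic reticulum (ER), sense unfolded proteins, and move finished proteins towards the cell surface. They were followed by RNA sequencing of mouse aorta after treatment with erythropoietin (EPO), a kidney hormone for making red blood cells. The set was chosen by name, with earlier results of these data known. It holds 37 genes in 11 roles, from ER chaperones to the receptors that retrieve escaped ER proteins. All 37 were found by symbol among the 47643 genes of the count table and all 37 passed the filter on low counts, which 16522 genes passed in all. Their counts summed over the libraries ran from 733 for Chac1 to 158429 for Calr.

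Proteins destined for secretion or for the extracellular matrix enter the ER through the Sec61 channel, are folded there by chaperones and disulfide isomerases, and leave in vesicles coated with COPII. When unfolded proteins build up, the membrane sensors Ern1 (also called IRE1), Eif2ak3 (PERK) and Atf6 start the unfolded protein response. That response slows translation and raises the genes of chaperones and of degradation through the transcription factors Xbp1, Atf4 and the cleaved form of Atf6. In the aortic wall, smooth muscle cells and fibroblasts send collagens and elastic fibre proteins through this route.

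Both groups were Apoe-/- mice, which lack apolipoprotein E and are prone to high blood cholesterol and atherosclerosis. The EPO group was injected intraperitoneally with recombinant human EPO at 5000 IU per kg per day for 4 weeks, and the Vehicle group was given saline by the same route for the same 4 weeks. Each group had 3 libraries of the whole aorta, and the sources used here do not give age, sex or the number of animals behind a library. P-values therefore measure the spread between these libraries, which may be technical. In whole tissue, fewer cells of a type and less RNA per cell cannot be told apart.

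Total counts lay between 23278649 and 38502430 per library. All levels below are counts per 1000000 (CPM) after TMM scaling of the libraries, the log2 fold change (or log2 difference) of a gene is EPO over Vehicle, and a gene is said to rise or fall when its adjusted p in edgeR's quasi-likelihood test was under 0.05. Markers of smooth muscle, the cell type that fills the aortic wall, were abundant in every library, with summed levels of 19800 to 28200 CPM in Vehicle and 7220 to 9260 CPM in EPO (8 of 8 lower). Markers of other cell types moved with the groups as well. Of 10 fibroblast markers 6 were higher and 0 lower, with sums of 14000 to 17300 CPM in Vehicle and 59400 to 78700 CPM in EPO. Most of this sum was RNA of the collagens Col1a1, Col1a2 and Col3a1 (means of 25700, 16600 and 18300 CPM in EPO). The 4 fibroblast markers not called were Pdgfra (1.32-fold), Dpt (1.39-fold), Dcn (0.916-fold) and Pi16 (0.823-fold), so the sum does not measure the number of fibroblasts. Of 8 tested markers of plasma cells and B cells, 5 were higher and 0 lower (185 to 223 CPM against 403 to 956 CPM). Of 8 macrophage markers 1 was higher (1790 to 3560 CPM against 3760 to 8250 CPM), and of 8 skeletal muscle markers all 8 were higher (5.95 to 18.8 CPM against 311 to 2770 CPM). Cell cycle genes were higher in 6 of 6 (24.9 to 40.4 CPM against 160 to 201 CPM) and chondrocyte markers in 4 of 5 tested (108 to 208 CPM against 726 to 956 CPM), and white adipocyte markers were lower in 4 of 7 (3040 to 7070 CPM against 1890 to 2480 CPM). Fewer calls were made among markers of endothelium (2 higher and 1 lower of 8), T cells (1 higher of 6) and neutrophils (1 higher of 5 tested). No marker of these lists had 0 counts in any library, and the part of these cell types in the results below was not tested. EPO 1 stood apart from EPO 2 and EPO 3. Its correlation with them across genes was 0.968 and 0.963 (log2 CPM), against 0.979 between the other two, and limma gave it a sample weight of 0.214 where the other libraries had 1.29 to 1.47.

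With EPO, 12 of the 37 genes rose (32.4%) and 0 fell. Across all genes tested, 12.9% were called higher and 10.1% lower, 23% in either direction. The set was chosen with earlier results of these data known, so this contrast and those that follow are descriptions. The median log2 fold change was 0.48 over the 37 genes and 0.01 over all genes tested. At an unadjusted p under 0.05, 15 of the 37 were higher (40.5%) and 0 lower, against 19.8% higher and 17.5% lower of all genes. DESeq2 called 16 higher and 0 lower, against 16% and 14% of all genes. With sample weights in limma-voom, 18 were higher and 1, Herpud1, lower, against 15.2% and 13.2%. The values of every EPO library lay above those of every Vehicle library for 19 genes (51.4%), and below them for 0. The same held for 22.9% and 21% of all genes tested.

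Calls are counted here by role, and differences between roles were not tested. The rises took in 4 of 6 co-chaperones and secreted stress factors, 2 of 4 disulfide isomerases and 2 of 3 translocon subunits. They also took in 2 of 2 KDEL receptors, 1 of 3 sensors and 1 of 3 degradation genes. None of the 5 large chaperones, 3 stress transcription factors, 2 targets of Atf4 and Ddit3, 2 CREB3L factors or 4 COPII genes passed the threshold. In the same order, the median log2 fold changes of these roles were 0.478, 0.173, 0.709, 0.265 and 0.0657.

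**Figure D1:**
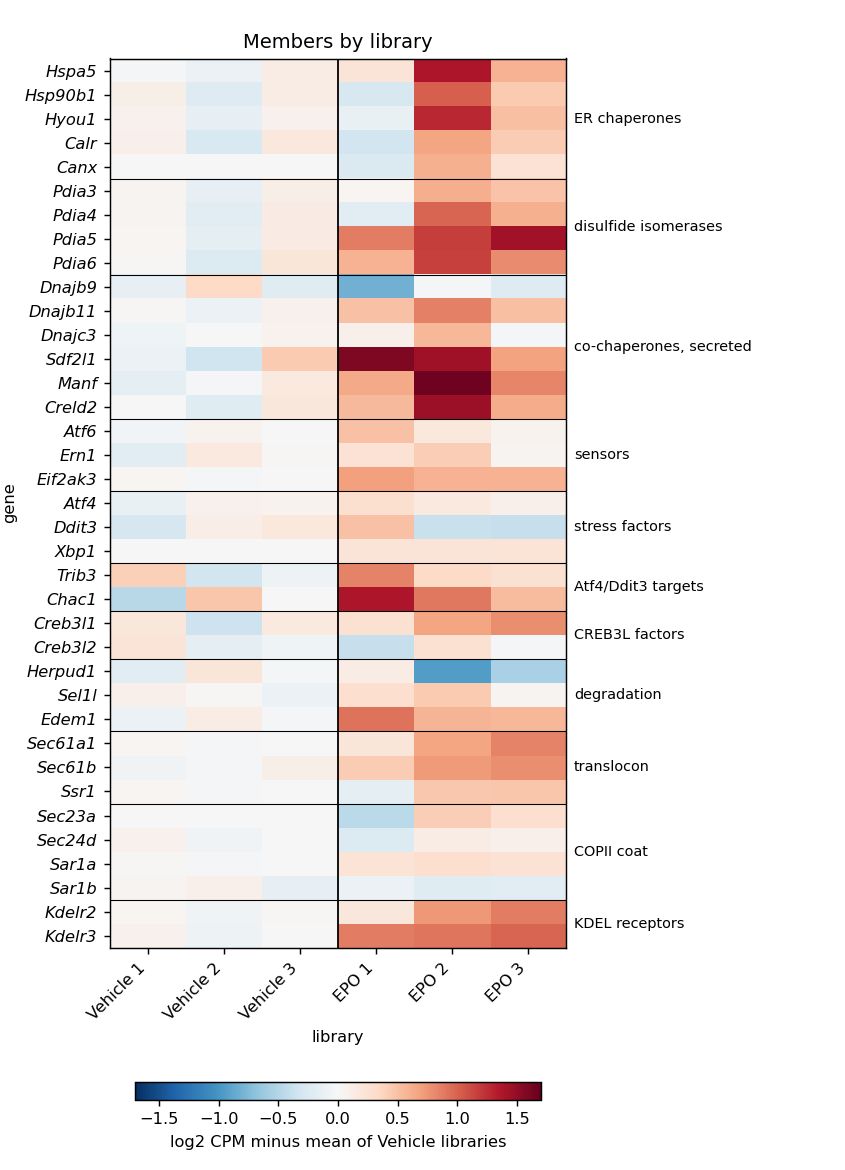
Level of each of the 37 genes in each library, as log2 CPM minus the mean of the Vehicle libraries (colour), with genes in rows by role and libraries in columns. Red cells gather in the EPO columns. Among the EPO libraries, most chaperones and isomerases are highest in EPO 2 and lowest in EPO 1. In EPO 1, Hsp90b1, Hyou1, Calr, Canx and Pdia4 lie below the Vehicle mean.

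The EPO libraries also differed among themselves. The median over the 37 genes, as log2 CPM relative to the Vehicle mean, was 0.23 in EPO 1, 0.60 in EPO 2 and 0.48 in EPO 3, and lay between -0.03 and 0.02 in the Vehicle libraries. Together the 37 genes took 0.511% to 0.6% of all counts in Vehicle and 0.536%, 0.928% and 0.754% in EPO 1, 2 and 3. EPO 2 held the highest value of all libraries for 18 genes, and EPO 1 the lowest of the EPO libraries for 24.

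The count of calls moved with single libraries. Without EPO 1, 20 genes were called higher and 1 lower, against 13.3% higher and 11.9% lower of all genes tested. Without EPO 2, 7 were higher and 0 lower (9.65% and 5.56% of all genes), and without EPO 3, 10 were higher and 0 lower (10.5% and 6.86%). Without Vehicle 1, Vehicle 2 or Vehicle 3 the higher genes numbered 3, 4 and 7 and the lower genes 0 each time. Of all genes tested, 5.49%, 6.3% and 8.1% were then higher and 4.1%, 5.59% and 7.31% lower. In a fit that kept EPO 3 alone of the treated libraries, the library with the lowest skeletal muscle markers of the EPO group, 7 were higher and 0 lower (6.14% and 2.62% of all genes). There the lone library is assumed to vary like the Vehicle libraries, and Pdia6, Dnajb11, Sdf2l1, Creld2 and Edem1 missed the threshold (adjusted p from 0.0662 to 0.233). Pdia5, Eif2ak3 and Kdelr3 kept their calls in all 17 alternative fits.

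**Figure D2:**
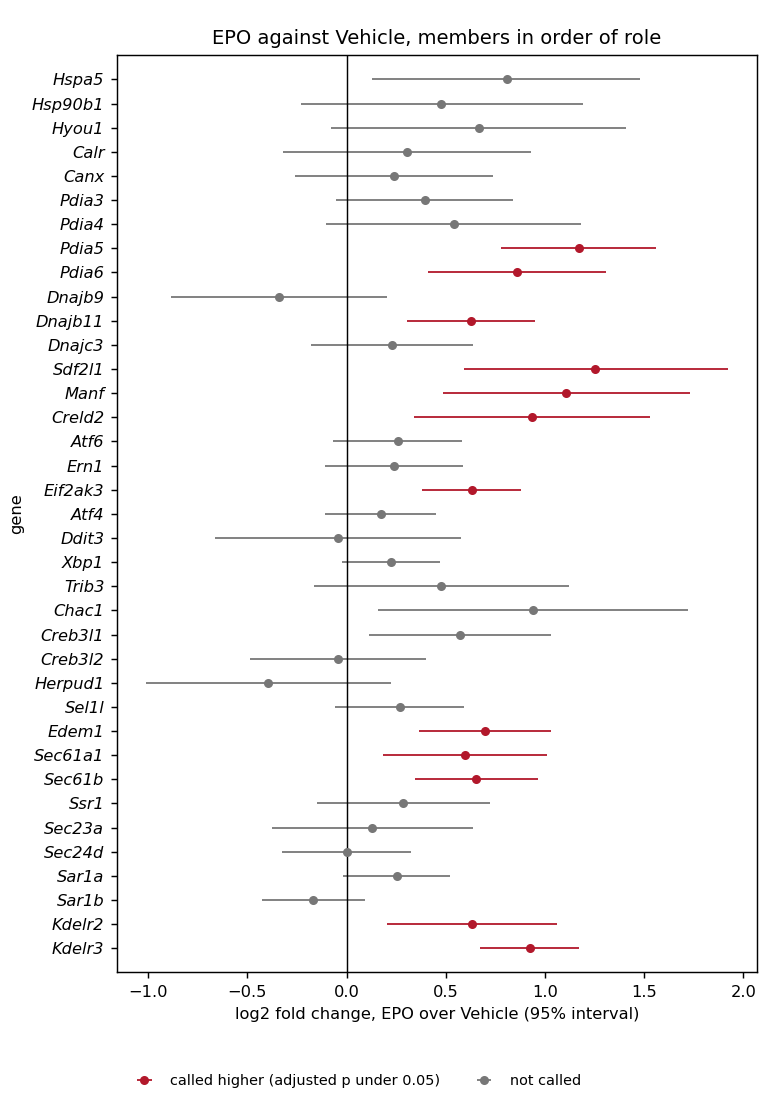
Log2 fold change of EPO over Vehicle with its 95% interval for the 37 genes in order of role, with red marking the 12 genes called higher. Fold changes ran from -0.40 for Herpud1 to 1.25 for Sdf2l1, and 32 of 37 points lie right of 0.

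None of the large chaperones passed the threshold with all libraries. Hspa5, known as BiP, binds unfolded chains and holds the sensors inactive, Hsp90b1 is the ER form of Hsp90, Hyou1 exchanges the nucleotide of BiP, and the lectins Calr and Canx hold glycoproteins while they fold. Per kilobase of annotated exon, the Vehicle level was highest for Calr (279 ± 42.4 CPM per kb, SD, n = 3), followed by the disulfide isomerase Pdia3 (195 ± 16.9) and Hspa5 (123 ± 10.2). Hsp90b1 (82.3 ± 10.3 CPM per kb) and Canx (75.8 ± 0.37) came next and did not differ beyond their spread. The lowest per kilobase were Trib3 (2.05 ± 0.54) and Chac1 (1.66 ± 0.55).

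Hspa5 (chromosome 2, 34771970 to 34777547, GRCm38) stood at 511, 482 and 567 CPM in Vehicle 1, 2 and 3 and at 603, 1343 and 782 CPM in EPO 1, 2 and 3. The groups did not overlap, but EPO 1 was near Vehicle 3 while EPO 2 was far above every other library. Its log2 fold change of 0.81 (SE 0.29, 95% interval 0.13 to 1.48) had an adjusted p of 0.0845. Without EPO 1 the log2 fold change was 1.02 and passed (adjusted p = 0.0257), and with all libraries it passed in DESeq2, with no filter, and when limma-voom weighted the samples.

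The other chaperones had the same order of EPO libraries. Hsp90b1 measured 352, 284 and 359 CPM in Vehicle and 273, 665 and 448 CPM in EPO. EPO 1 was thus the lowest of all libraries and EPO 2 the highest, so that the log2 fold change of 0.48 had an SE of 0.30 (adjusted p = 0.296). Hyou1 measured 112, 97.3 and 113 CPM in Vehicle and 98.1, 260 and 152.7 CPM in EPO (log2 difference 0.67, SE 0.32, adjusted p = 0.174). Calr, from 665 to 900 CPM in Vehicle and from 638 to 1263 CPM in EPO, and Canx, from 354 to 358 CPM and from 299.6 to 539.7 CPM, also had EPO 1 below every Vehicle library. Their log2 fold changes were 0.31 and 0.24 (95% intervals -0.32 to 0.93 and -0.26 to 0.74). Without EPO 1, Hsp90b1 and Hyou1 passed (adjusted p = 0.0403 and 0.0285) and Calr and Canx did not (0.0635 and 0.0624). Hsp90b1 overlaps 1810014B01Rik on the other strand, and without a known strand setting reads of the shared stretch cannot be assigned.

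The promoters of several of these genes carry the ER stress response element, the DNA element through which cleaved Atf6 and Xbp1 are known to act. It was searched by its letters on both strands of RefSeq windows of the GRCm38.p6 build, from 250 bases before to 50 after the gene start, which were at hand for 31 of the 37 genes. Distances are from the RefSeq start, which can differ from the start in the annotation used for the counts. The form ERSE-I, written CCAAT and CCACG with any 9 bases between them, was found in 7 of the 31 windows (22.6%) and in 39 of all 32851 windows (0.119%). The form ERSE-II, ATTGG and CCACG with 1 base between them, was found in 2 (6.45%, against 0.0365% of all windows). The 37 genes were gathered by function, and the element was first described in genes such as Hspa5, so its share here is a description and no independent finding. For the same reason of choice by function, the shares of the C/EBP-ATF element and the unfolded protein response element given below are descriptions too. The matches are shown on the strand of the gene, with the fixed letters in capitals, because genes that rose and genes that did not both carry them.

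Hspa5: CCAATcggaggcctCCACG
Hsp90b1, far site: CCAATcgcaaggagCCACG
Hsp90b1, near site: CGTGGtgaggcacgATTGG
Calr: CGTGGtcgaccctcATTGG
Canx: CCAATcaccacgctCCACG
Pdia6: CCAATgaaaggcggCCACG
Dnajc3: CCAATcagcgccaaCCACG
Creld2: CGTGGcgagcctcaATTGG
Dnajb11: ATTGGcCCACG
Herpud1: ATTGGgCCACG

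The near site of Hsp90b1 and the sites of Calr and Creld2 are read from the other strand. The site of Dnajb11 lies after the RefSeq start, at bases 8 to 18 counted from it. Of these 9 genes, Pdia6, Creld2 and Dnajb11 rose with EPO and the other 6 did not pass the threshold. Of the 22 windows without either form, 6 belong to genes that rose. The 250 bases upstream of Hspa5, chr2:34771840-34772089 on the forward strand, are given with the element in capitals: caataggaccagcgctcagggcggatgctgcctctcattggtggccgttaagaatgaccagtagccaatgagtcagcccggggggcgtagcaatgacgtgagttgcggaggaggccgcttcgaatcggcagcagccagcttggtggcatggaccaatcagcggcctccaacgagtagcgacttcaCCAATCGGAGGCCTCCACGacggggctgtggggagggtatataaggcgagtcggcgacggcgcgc. The match begins 65 bases before the RefSeq start at 34772090 and ends 47 bases before it. That start lies 120 bases downstream of the gene's first annotated base given above, so part of the stretch and the match fall inside the longer gene model.

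Among the disulfide isomerases, which form and rearrange disulfide bonds, Pdia5 and Pdia6 rose. Pdia5 (chromosome 16, 35397312 to 35490873) measured 26.4, 23.1 and 28.4 CPM in Vehicle and 47.4, 58.3 and 69.5 CPM in EPO. Every EPO library was well above every Vehicle library, and the level was 2.25-fold higher (log2 fold change 1.17, SE 0.17, adjusted p = 0.00431). Pdia6, which is also known to shut off the sensors IRE1 and PERK, measured 225, 189.5 and 256 CPM in Vehicle and 335, 495 and 387 CPM in EPO. It was 1.81-fold higher (log2 fold change 0.86, SE 0.19, adjusted p = 0.0192), with no overlap of the groups. Its adjusted p was 0.0833, 0.0808 and 0.0509 without Vehicle 1, Vehicle 2 and EPO 2.

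Pdia3, the partner of calreticulin and calnexin, and Pdia4 followed the large chaperones more than Pdia5. Pdia3 measured 633, 552.5 and 653 CPM in Vehicle and 624.5, 936 and 855 CPM in EPO (log2 difference 0.39, SE 0.19, adjusted p = 0.177). Pdia4 measured 134, 112.5 and 143 CPM in Vehicle and 114, 255 and 197 CPM in EPO (log2 difference 0.54, SE 0.28, adjusted p = 0.196). In both genes EPO 1 lay inside the Vehicle range and the other EPO libraries above it, and without EPO 1 both passed (adjusted p = 0.0287 and 0.0164).

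Among the smaller ER proteins, Sdf2l1, Manf, Creld2 and Dnajb11 rose. Sdf2l1, a partner of the DnaJ co-chaperones, measured 18.5, 15.6 and 26.9 CPM in Vehicle and 59.7, 53.7 and 31.9 CPM in EPO. It was 2.38-fold higher (log2 fold change 1.25, SE 0.28, adjusted p = 0.0199) and, unlike most of the set, was highest in EPO 1. Manf, a small protein released on ER stress, measured 43.1, 47.2 and 53.8 CPM in Vehicle and 74.6, 151 and 84.8 CPM in EPO, a 2.15-fold rise (log2 fold change 1.11, SE 0.27, adjusted p = 0.0242). Creld2, another ER stress-inducible secreted protein, measured 29.6, 25.7 and 33.7 CPM in Vehicle and 43.2, 81.4 and 45.7 CPM in EPO, a 1.91-fold rise (log2 fold change 0.94, SE 0.26, adjusted p = 0.0372). Manf and Creld2 were both highest in EPO 2, and in all 3 genes the groups did not overlap.

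Dnajb11, a co-chaperone that hands chains to BiP, rose 1.54-fold, from 71.5 to 80.8 CPM in Vehicle to 109 to 138 CPM in EPO (log2 difference 0.63, SE 0.14, adjusted p = 0.0177). The remaining co-chaperones did not pass. Dnajc3, an inhibitor of PERK also called p58IPK, measured 149.6, 158 and 164 CPM in Vehicle and 168, 232 and 153.5 CPM in EPO (log2 fold change 0.23, adjusted p = 0.381). Dnajb9, a co-chaperone that represses IRE1 and is a classic target of spliced Xbp1, measured 52.8, 74 and 50.7 CPM in Vehicle and 33.2, 57.2 and 49.9 CPM in EPO (log2 fold change -0.34, 95% interval -0.88 to 0.20, adjusted p = 0.331). Its EPO values thus lay within or below the Vehicle range. Calls in this role rested on few libraries. Without Vehicle 1 or Vehicle 2 all 4 rises missed the threshold (adjusted p from 0.0725 to 0.13), as did Manf and Creld2 without Vehicle 3 (0.0517 and 0.0646) and Sdf2l1 and Creld2 without EPO 2 (0.0557 and 0.0515). Manf overlaps Dcaf1 on the other strand.

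**Figure D3:**
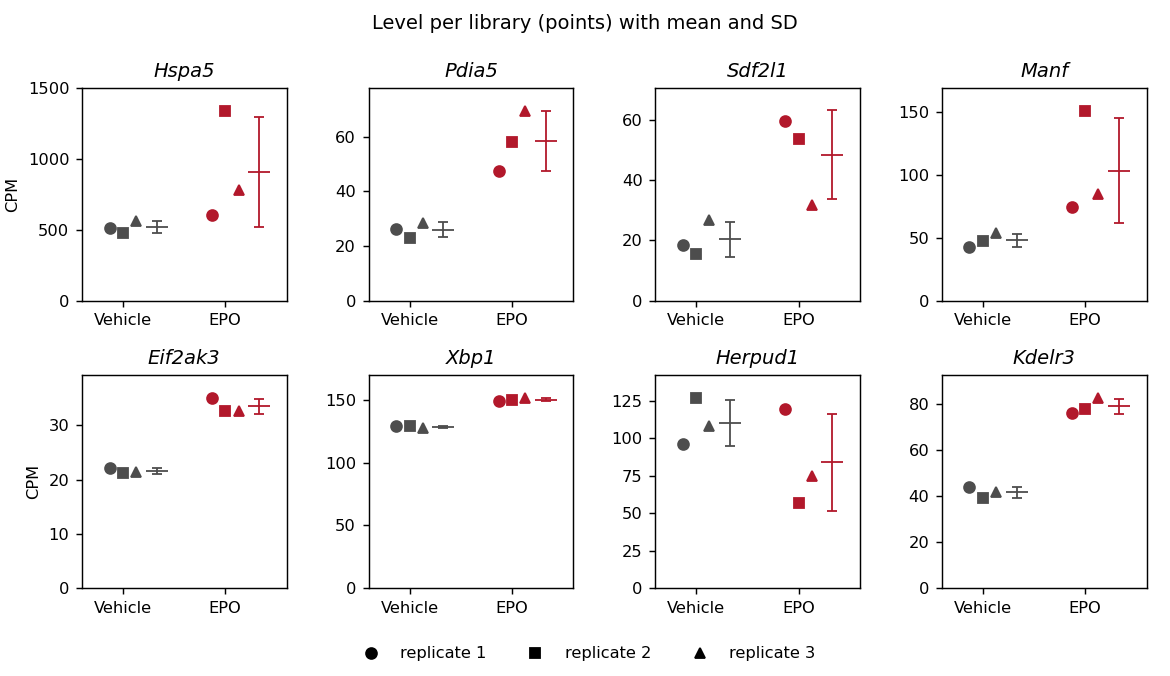
CPM of 8 genes in each library, with symbols for the replicate number and bars for the mean and SD of each group (n = 3). Pdia5, Eif2ak3 and Kdelr3 have EPO points far above the Vehicle points, Hspa5 and Manf have a wide spread in EPO led by EPO 2, and Herpud1 has EPO 2 and EPO 3 below every Vehicle library and EPO 1 among them.

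Of the sensors, Eif2ak3 rose. This kinase, PERK, phosphorylates the initiation factor eIF2 alpha and so slows translation. Eif2ak3 (chromosome 6, 70844515 to 70905245) measured 22.2, 21.2 and 21.5 CPM in Vehicle and 35, 32.7 and 32.7 CPM in EPO. The libraries of each group were close together and the groups far apart, giving a 1.55-fold rise (log2 fold change 0.63, SE 0.11, adjusted p = 0.00753). An opposite-strand gene model, Gm43292, overlaps its exons. Ern1, the kinase and nuclease that splices Xbp1 mRNA, measured 23.5, 30.1 and 27.3 CPM in Vehicle and 31.9, 35.9 and 27.6 CPM in EPO (log2 difference 0.24, SE 0.15, adjusted p = 0.288). Atf6, a membrane-held transcription factor, measured 48.6, 52 and 49.7 CPM in Vehicle and 70.9, 56.7 and 52 CPM in EPO (log2 difference 0.26, SE 0.14, adjusted p = 0.222). The EPO values of Atf6 all lay above Vehicle, EPO 3 by very little.

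The 3 transcription factors of the response did not pass the threshold at the RNA level. Xbp1, which drives chaperone and secretory genes once its mRNA is spliced, measured 129.1, 129.2 and 128 CPM in Vehicle and 149.6, 150 and 152 CPM in EPO. The values were tightly grouped and the groups did not overlap, yet the log2 fold change was only 0.22 (SE 0.11, 95% interval -0.02 to 0.47, adjusted p = 0.165), from a model whose spread is shared with other genes of like level. Gene counts do not separate the spliced from the unspliced form. Atf4, translated when eIF2 alpha is phosphorylated, measured 111, 127 and 125.5 CPM in Vehicle and 145.5, 136 and 128 CPM in EPO (log2 difference 0.17, SE 0.12, adjusted p = 0.336). Ddit3, the pro-apoptotic factor CHOP, measured 17, 22.5 and 23.5 CPM in Vehicle and 29.3, 16 and 15.8 CPM in EPO (log2 fold change -0.04, 95% interval -0.67 to 0.58, adjusted p = 0.927). EPO 1 was its highest library and EPO 3 its lowest, so the EPO values enclosed the Vehicle values. Ddit3 shares exon bases with Mars on the other strand and with a second gene model of the same symbol.

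The targets of these factors were low and variable. Trib3, a pseudokinase that restrains Atf4 signalling, measured 5.65, 3.42 and 4 CPM in Vehicle and 7.7, 5.36 and 5.11 CPM in EPO (log2 difference 0.48, SE 0.27, adjusted p = 0.248). Chac1, which degrades glutathione, measured 1.87, 3.66 and 2.62 CPM in Vehicle and 6.92, 4.92 and 3.82 CPM in EPO (log2 difference 0.94, SE 0.34, adjusted p = 0.082). Both were highest in EPO 1, and Chac1 did not overlap between groups. Chac1 carries the C/EBP-ATF element TGATGCAA, read from the other strand, in its promoter window, as does Herpud1. These are 2 of 31 windows (6.45%), against 0.895% of all windows, a description for genes gathered by function.

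Creb3l1 and Creb3l2 are ER membrane transcription factors of the CREB3 family that are cleaved in the Golgi and are known, in mouse, to support collagen secretion in bone and cartilage. Creb3l1 measured 66, 45.3 and 64.6 CPM in Vehicle and 69.3, 92.4 and 99.98 CPM in EPO. The groups did not overlap but EPO 1 was close to Vehicle 1, and its log2 fold change of 0.57 (SE 0.20) did not pass (adjusted p = 0.0743). Without EPO 1 it passed (0.0306). Creb3l2 measured 178, 137 and 146 CPM in Vehicle and 116, 182 and 149 CPM in EPO (log2 fold change -0.04, adjusted p = 0.897). Over the same libraries, Col1a1, a chain of type I collagen and a main cargo of the route, measured 2899, 4006 and 3428 CPM in Vehicle and 25090, 22750 and 29390 CPM in EPO.

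The degradation genes split. Edem1, a lectin that draws misfolded glycoproteins out of the folding cycle, measured 72.5, 85.2 and 76.6 CPM in Vehicle and 147, 116.5 and 116 CPM in EPO. Every EPO library exceeded every Vehicle library, and the gene rose 1.62-fold (log2 fold change 0.70, SE 0.14, adjusted p = 0.0137), although it missed the threshold without Vehicle 1 (0.0743) or Vehicle 3 (0.0503). Sel1l, the scaffold of the Hrd1 ubiquitin ligase, measured 117.5, 112 and 103 CPM in Vehicle and 135, 151 and 115 CPM in EPO (log2 fold change 0.27, adjusted p = 0.205). Herpud1, a stress-inducible membrane partner of the same ligase, measured 96.2, 127 and 108 CPM in Vehicle and 120, 56.9 and 75.1 CPM in EPO. EPO 2 and EPO 3 lay below every Vehicle library while EPO 1 lay among them (log2 fold change -0.40, SE 0.27, adjusted p = 0.322). Without EPO 1 its log2 fold change was -0.75 with an adjusted p of 0.0283, which makes it the gene called lower in that fit. EPO 2, the library highest for the large chaperones, was thus the lowest for Herpud1.

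The 250 bases upstream of Herpud1, chr8:94386179-94386428 on the forward strand, are shown because they hold both elements, with the C/EBP-ATF element and ERSE-II in capitals: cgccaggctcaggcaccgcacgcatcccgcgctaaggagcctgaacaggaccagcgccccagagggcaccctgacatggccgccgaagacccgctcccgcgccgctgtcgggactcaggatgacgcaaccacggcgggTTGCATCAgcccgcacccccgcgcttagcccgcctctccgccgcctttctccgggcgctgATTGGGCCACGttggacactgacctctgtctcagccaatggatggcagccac. They begin 112 and 52 bases before the RefSeq start.

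At the translocon, the channel subunits Sec61a1 and Sec61b rose. Sec61b, a small tail-anchored subunit, measured 52.2, 53.3 and 58.5 CPM in Vehicle and 73.4, 89.9 and 94.7 CPM in EPO, a 1.57-fold rise (log2 fold change 0.65, SE 0.13, adjusted p = 0.0137). Sec61a1, the pore itself, measured 148, 142 and 143.5 CPM in Vehicle and 166, 231 and 259.5 CPM in EPO, a 1.51-fold rise (log2 fold change 0.60, SE 0.18, adjusted p = 0.0472). Neither gene overlapped between groups, and both had EPO 1 as the lowest EPO library. The call of Sec61a1 held in 8 of 17 alternative fits and was lost without any library except EPO 1 (adjusted p from 0.114 to 0.153), and that of Sec61b was lost without Vehicle 1 or Vehicle 2 (0.0789 and 0.0646). Sec61a1 overlaps Gm44170 on the other strand. Ssr1, a subunit of the translocon-associated protein complex, measured 191, 185 and 186 CPM in Vehicle and 167, 258 and 260.5 CPM in EPO (log2 difference 0.29, SE 0.19, adjusted p = 0.309). EPO 1 was its lowest library, and without EPO 1 it passed (0.0156).

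COPII genes did not pass. Sec24d, a cargo adaptor of the coat that is needed for collagen export in zebrafish, measured 191, 175.5 and 181 CPM in Vehicle and 155, 199 and 194 CPM in EPO, with a log2 fold change of 0.00 (SE 0.14, 95% interval -0.32 to 0.33). Sec23a, its partner in the inner coat, measured 80.9, 80.3 and 81.2 CPM in Vehicle and 58.9, 108 and 98.2 CPM in EPO (log2 difference 0.13, SE 0.22, adjusted p = 0.701). The Vehicle values of Sec23a were nearly equal, with EPO 1 below and the other EPO libraries above them, and without EPO 1 it passed (log2 fold change 0.34, adjusted p = 0.034). The GTPase Sar1a, which starts coat assembly, measured 239, 233 and 237 CPM in Vehicle and 277, 288 and 279.7 CPM in EPO (log2 difference 0.25, SE 0.12, adjusted p = 0.155). Its relative Sar1b, which serves lipoprotein export in the gut and liver, measured 71.8, 73.3 and 63 CPM in Vehicle and 64.6, 60.1 and 60.8 CPM in EPO (log2 difference -0.17, SE 0.11, adjusted p = 0.32).

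Both KDEL receptors rose. These receptors bind the C-terminal KDEL signal of chaperones in the Golgi and return them to the ER. Kdelr3 (chromosome 15, 79516411 to 79527739) measured 43.8, 39 and 41.8 CPM in Vehicle and 76.1, 77.8 and 82.4 CPM in EPO. The values were tight within groups and well apart between them, a 1.9-fold rise (log2 fold change 0.92, SE 0.11, adjusted p = 0.00277), the smallest p of the 37 genes. Kdelr2 measured 119, 112 and 118 CPM in Vehicle and 133.5, 195 and 212 CPM in EPO, a 1.55-fold rise (log2 fold change 0.63, SE 0.18, adjusted p = 0.0442) that, left out in turn, every library except EPO 1 ended (adjusted p from 0.107 to 0.147). The promoter window of Kdelr3 holds the unfolded protein response element TGACGTGG, read from the other strand 30 bases before the RefSeq start. Sec23a and Sec24d hold it too, in Sec23a after the RefSeq start, at bases 7 to 14 counted from it. The element was thus present in 3 of 31 windows (9.68%), against 0.676% of all windows. The cyclic AMP element TGACGTCA was found in 0 of 31 and in 1.79% of all. The 250 bases upstream of Kdelr3, chr15:79516158-79516407 on the forward strand, read, with the element in capitals: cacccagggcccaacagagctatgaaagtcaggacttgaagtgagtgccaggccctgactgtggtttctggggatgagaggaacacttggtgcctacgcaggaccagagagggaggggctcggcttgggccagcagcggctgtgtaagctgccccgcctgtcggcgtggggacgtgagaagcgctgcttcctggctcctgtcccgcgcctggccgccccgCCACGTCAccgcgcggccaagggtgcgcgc.

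**Figure D4:**
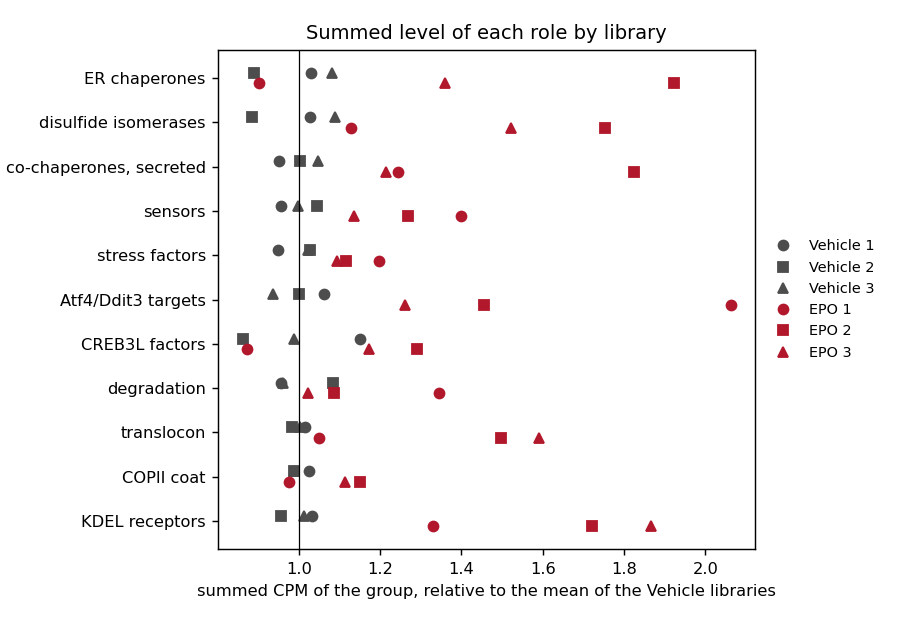
Summed CPM of the genes of each role in each library, relative to the mean of the Vehicle libraries, with grey for Vehicle, red for EPO and a symbol for the replicate number. KDEL receptors lie at 1.33, 1.72 and 1.87 in EPO 1, 2 and 3, while the large chaperones lie at 0.90, 1.92 and 1.36.

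Summed over their genes, the roles fell into different orders of the EPO libraries. The large chaperones stood at 1910, 4070 and 2880 CPM in EPO 1, 2 and 3 (1880 to 2290 CPM in Vehicle) and the translocon at 406, 579 and 615 CPM (380 to 392 CPM in Vehicle), lowest in EPO 1. The sensors at 138, 125 and 112 CPM (94.3 to 103 CPM in Vehicle) and the targets of Atf4 and Ddit3 at 14.6, 10.3 and 8.93 CPM (6.63 to 7.52 CPM in Vehicle) were highest in EPO 1. Marker sums in the same libraries were 8250, 4170 and 3760 CPM for macrophages, 956, 403 and 642 CPM for plasma cells and B cells, 59400, 62000 and 78700 CPM for fibroblasts and 1110, 2770 and 311 CPM for skeletal muscle. Skeletal muscle markers and the large chaperones were both highest in EPO 2, but the former were lowest in EPO 3 and the latter in EPO 1. The sums for macrophages and for plasma cells and B cells were highest in EPO 1, and that for fibroblasts, mostly collagen RNA, in EPO 3. Among the sensors, Ern1 was highest in EPO 2. The part of these cell types in the orders was not tested.

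Related genes were also compared within each library, since a ratio of counts in the same library does not depend on how libraries are scaled. The ratio of Creb3l1 to Creb3l2 was 0.371, 0.33 and 0.444 in Vehicle and 0.596, 0.508 and 0.671 in EPO, a log2 difference of 0.63. The ratio of Sar1a to Sar1b was 3.33, 3.17 and 3.76 in Vehicle and 4.28, 4.79 and 4.6 in EPO, a log2 difference of 0.42. The ratio of Kdelr3 to Kdelr2 was 0.368, 0.349 and 0.354 in Vehicle and 0.57, 0.4 and 0.388 in EPO, a log2 difference of 0.32 that was 0.14 without EPO 1. For these 3 pairs every EPO ratio lay above every Vehicle ratio, with a two-sided exact permutation p of 0.1, the lowest value possible with groups of 3, and 0.2 after adjustment over 6 pairs, so none could pass. For Sec24d to Sec24c, Sec23a to Sec23b and Atf6 to Atf6b the ratios overlapped between groups (exact permutation p = 0.2, 1 and 0.7).

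**Figure D5:**
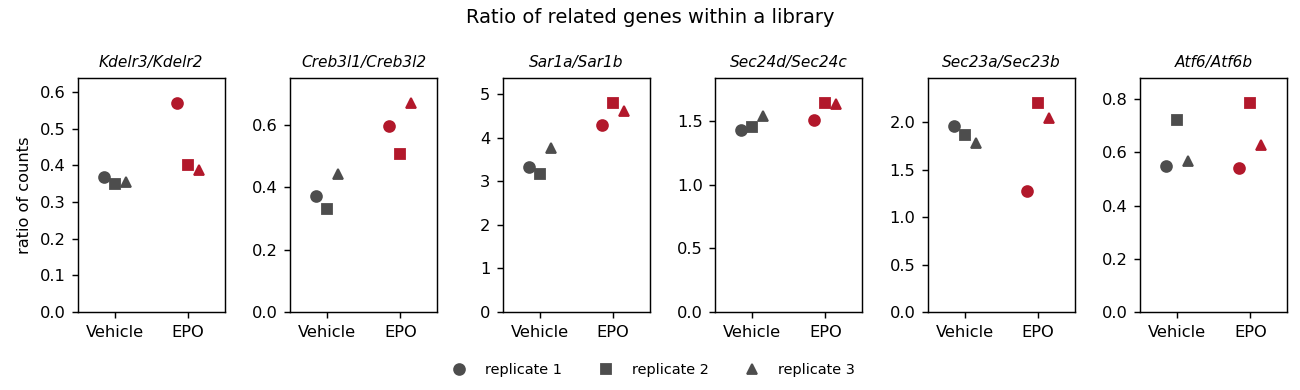
Ratio of the counts of related genes in the same library for 6 pairs, by group, with symbols for the replicate number. The ratios of Kdelr3 to Kdelr2, Creb3l1 to Creb3l2 and Sar1a to Sar1b do not overlap between groups, and those of the other pairs do.

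Other genes of the pathway, listed by function, were read in the same fit, in which 12.9% of all genes tested rose and 10.1% fell. These lists too were made with earlier results of these data known, so their shares are descriptions. Among 21 tested folding enzymes and chaperones outside the set, 10 rose and 0 fell (median log2 fold change 0.33). Serpinh1, the collagen chaperone Hsp47, measured 837, 706 and 802 CPM in Vehicle and 1901, 2051 and 2077 CPM in EPO (log2 difference 1.36, SE 0.16, adjusted p = 0.00277). Fkbp11, a prolyl isomerase of secretory cells, rose from 4.3 to 7.59 CPM in Vehicle to 16.3 to 17.9 CPM in EPO (1.58, adjusted p = 0.00431), and Mogs, the glucosidase that makes the first cut in N-glycans, from 29 to 31.8 CPM to 49.8 to 62.3 CPM (0.87, adjusted p = 0.0041). Mogs was highest in EPO 1. The count of rises was 4 without Vehicle 1 or Vehicle 2, where 5.49% and 6.3% of all genes were higher.

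Among 22 subunits of the translocon, signal peptidase and oligosaccharyltransferase, 4 rose and 0 fell (median log2 fold change 0.26). Ssr2, a translocon-associated subunit, rose 1.84-fold, Ostc, an oligosaccharyltransferase subunit, 1.71-fold and Spcs3, of the signal peptidase, 1.72-fold (adjusted p = 0.00785, 0.0084 and 0.00999). Without EPO 1 (13.3% of all genes higher) the rises numbered 8 and without Vehicle 1 (5.49%) they numbered 1, with Ostc at 0.0555 and Spcs3 at 0.0601.

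Of 21 COPII, ER exit and retrieval genes, 2 rose and 0 fell (median 0.23), a share not above the 12.9% of all genes. Lman1, a cargo receptor for glycoproteins such as clotting factors, measured 76, 80.1 and 75.9 CPM in Vehicle and 128, 170 and 143 CPM in EPO (log2 difference 0.93, SE 0.14, adjusted p = 0.0047). Surf4, a cargo receptor for soluble secreted proteins, rose 1.43-fold (adjusted p = 0.0284), though it missed the threshold when any library except EPO 1 was left out (0.0715 to 0.137), and Copg1 did not pass (log2 fold change 0.36, adjusted p = 0.0529). Without EPO 1 the rises numbered 6, where 13.3% of all genes were higher.

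Of 16 degradation genes 1 rose and 0 fell (median 0.15), also a share not above 12.9%. It was Derl3, a derlin of secretory cells, at 0.739, 0.35 and 0.725 CPM in Vehicle and 1.31, 2.14 and 2.04 CPM in EPO (adjusted p = 0.027), and without any library except EPO 1 it missed the threshold (0.0577 to 0.0883). Os9 and Faf2 did not pass (log2 fold changes 0.37 and 0.28, adjusted p = 0.124 each).

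Of 23 tested targets of Atf4 and CHOP, 5 rose and 2 fell (median 0.37). Slc7a11, the cystine transporter, measured 1.22, 0.933 and 2.35 CPM in Vehicle and 8.53, 18.9 and 14.6 CPM in EPO (log2 difference 3.21, SE 0.43, adjusted p = 0.00362). Psat1, an enzyme of serine synthesis, rose 2.47-fold (adjusted p = 0.00408). The genes that fell were Vldlr, a lipoprotein receptor, from 78.9 to 115 CPM in Vehicle to 32.4 to 35.8 CPM in EPO (log2 fold change -1.48, adjusted p = 0.00231), and the stress factor Atf3, from 45.6 to 92.3 CPM to 32.7 to 44.5 CPM (-0.93, adjusted p = 0.0385), which was named after its value was seen. Atf3 missed the threshold without Vehicle 2, Vehicle 3, EPO 2 or EPO 3 (adjusted p = 0.113, 0.0911, 0.105 and 0.102). The count of rises was 2 or 3 without Vehicle 1, Vehicle 2, Vehicle 3, EPO 2 or EPO 3.

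Of 12 tested sensors and regulators 1 rose and 1 fell (median 0.23). Creb3l3, a CREB3 relative known from liver, measured 0.782, 1.52 and 1.1 CPM in Vehicle and 3.15, 4.48 and 6.76 CPM in EPO (log2 difference 2.07, SE 0.39, adjusted p = 0.0101). Wfs1, the ER membrane protein wolframin, measured 76.2, 58.9 and 69.8 CPM in Vehicle and 38.4, 49.6 and 41 CPM in EPO (log2 difference -0.67, SE 0.15, adjusted p = 0.0192), and missed the threshold without Vehicle 1, Vehicle 3 or EPO 3 (0.0736, 0.0566 and 0.0565). Eif2ak4, the amino acid sensor GCN2, did not pass (log2 fold change 0.52, adjusted p = 0.0545).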

How the data were processed

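RNA was measured in 6 libraries of mouse aorta. The authors deposited whole-number counts per Ensembl gene, with no normalization. Per the submitters' processing notes, base calls came from CASAVA 1.8 and reads were aligned with TopHat2 2.0.6 to mm10; the sources used here do not give the counting tool, annotation or strand setting. Columns named Con were read as Vehicle. Of 47643 gene IDs, 47224 matched GENCODE M21 (GRCm38), which also gave coordinates and exon lengths; the 419 others held 0.0272% of counts.

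In R 4.3.3 with edgeR 4.0.16, genes were filtered with filterByExpr (16522 kept, with 99.9% of counts), scaled by TMM and tested by the quasi-likelihood test (two-sided, group as the only term) with Benjamini-Hochberg adjustment over all genes tested. Each adjusted p is from this fit unless another tool is named. Standard errors were derived from the fold change and F statistic, and intervals from them are approximate. Log2 CPM used a prior count of 2. The procedure was tested on simulated data, whose settings and outcome are not reported here. Replicate numbers did not pair the libraries (correlations of deviations -0.01, -0.01 and 0.13). Intervals cover the spread between 3 libraries; a count of 0 allows up to 0.0779 to 0.129 CPM. Alternatives used DESeq2 1.42.0 and limma 3.58.1, other filters and scalings, and left-out libraries. Text on other pathway genes names up to 3 tested genes of smallest p per list. Members and lists were chosen with earlier results of these data known. Protein sequences were not used here.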

Additional observations from a re-analysis of the deposited data

How the results depend on the processing

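The 17 alternative fits and 2 other thresholds left the direction of the set as a whole as it was, and the 12 rises moved in number. Higher members numbered 3 with a fold of at least 2, 7 with the replicate block, and 7 with EPO 1 and EPO 2 both left out. With single libraries left out they ranged from 3 to 20. With sample weights in limma-voom 18 members were higher and 1 lower, and lower members ranged from 0 to 1 with single libraries left out. The median log2 fold change, 0.48, ranged from 0.26 to 0.54 with single libraries left out and was 0.39 with the block. The block added the replicate number as a term, and the samples share only that number; it ended the calls of Pdia6, Sdf2l1, Creld2, Sec61a1 and Kdelr2. Over all genes, 2133 higher and 1671 lower became 1329 and 919 with a fold of at least 2, 936 to 2265 and 699 to 2016 with single libraries left out, and 1085 and 463 with EPO 1 and EPO 2 left out.

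Signs turned only in members near 0 that had passed in none of these fits except Sec23a. Sec24d was -0.00622 with DESeq2 size factors, -0.0143 with library size alone, -0.0032 with a filter of 1 CPM in 3 samples, -0.00627 with the DESeq2 test, -0.00511 with limma-voom, -0.00673 with the block, -0.0222 with collagen genes left out of the totals, and -0.0614 to 0.0963 with single libraries left out. Creb3l2 was 0.0676 with sample weights and -0.209 to 0.0992 with single libraries left out, Ddit3 -0.412 to 0.112 and Sec23a -0.0392 to 0.343, and Dnajc3 was -0.0326 with EPO 1 and EPO 2 left out. The ratio difference of Sec23a to Sec23b ranged from -0.214 to 0.183 and that of Atf6 to Atf6b from -0.061 to 0.208. The cause of these changes was not tested. With 3 libraries a group, Hspa5 and Creb3l1 did not pass in the main fit. Their log2 fold changes were 0.81 and 0.57, with SEs of 0.29 and 0.20. Both passed with all libraries in DESeq2 and with sample weights in limma-voom, so their calls depended on the fit. A gene that did not pass is not shown to be unchanged.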
